A study of Rattus norvegicus with 11 samples.

Results

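Expression in rat liver was followed for 9 genes known as direct targets of the transcription factor p53, namely Mdm2, Cdkn1a, Ccng1, Fas, Apaf1, Zmat3, Gadd45a, Btg2 and Phlda3. They were given as a list and were taken from the arrays as every probe set with 1 of these symbols as its single gene symbol in the platform annotation, which gave 14 of 31099 probe sets and 8 of the 9 genes. Btg2, an antiproliferative gene, had 0 probe sets named for it there and was not analysed here. The brightest probe set over the 11 arrays stood for its gene, so that the 8 measured members were 8 of 10714 genes tested. Liver RNA came from 8 Wistar rats given a high dose of mequindox (animals 2, 3, 4, 5, 6, 8, 10 and 11) and from 3 Wistar control rats (animals 1, 2 and 9), with 1 Affymetrix array per animal. Mequindox is a synthetic quinoxaline N-oxide antibacterial used in livestock. The labels gave an age of week 9 for all animals except high-dosed animal 8, labelled week 10, and stated neither the dose in units of mass, the length of treatment nor the sex. Per the design text, both groups were picked for arrays after a principal component analysis of liver extracts and clinical chemistry had been seen.

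The protein p53 is a sequence-specific transcription factor that is kept scarce in unstressed cells by Mdm2, the ubiquitin ligase that marks it for degradation. When DNA is damaged, kinases release p53 from this control, and it binds paired half-sites near its targets and raises their transcription. Because p53 is regulated mainly as a protein, its activity is commonly followed through the RNA of its targets, which carry out cell cycle arrest (Cdkn1a, Gadd45a, Btg2), feedback on p53 itself (Mdm2, Ccng1), cell death (Fas, Apaf1), restraint of the survival kinase Akt (Phlda3) and RNA regulation (Zmat3). Several of these genes also respond to signals other than p53; Cdkn1a in particular is controlled by many transcription factors.

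Promoter windows of 4 members are shown because they hold the gene that fell, the gene with the largest rise and the members with a p53 half-site near their start. Each runs 5′ to 3′ on the gene's strand from 250 bases before to 50 bases after the start annotated by RefSeq in assembly GRCr8. Capitals mark matches to the p53 half-site consensus, a palindrome of 10 bases whose match is the same on both strands.
Cdkn1a, chr20:7150682-7150981, + strand: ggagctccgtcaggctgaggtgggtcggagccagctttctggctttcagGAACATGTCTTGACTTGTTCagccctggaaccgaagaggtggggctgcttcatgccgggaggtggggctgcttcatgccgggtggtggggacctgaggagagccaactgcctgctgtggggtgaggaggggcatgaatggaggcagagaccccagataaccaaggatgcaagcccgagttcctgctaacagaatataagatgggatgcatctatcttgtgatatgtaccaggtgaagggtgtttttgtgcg
Ccng1, chr10:25684827-25685126, - strand: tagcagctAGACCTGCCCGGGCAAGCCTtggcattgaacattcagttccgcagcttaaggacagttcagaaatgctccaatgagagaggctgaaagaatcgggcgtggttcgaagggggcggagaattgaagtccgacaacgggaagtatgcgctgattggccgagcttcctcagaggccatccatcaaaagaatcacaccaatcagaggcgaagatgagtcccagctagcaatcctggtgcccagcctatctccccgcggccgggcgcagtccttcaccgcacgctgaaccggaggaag
Gadd45a, chr4:97486750-97487049, - strand: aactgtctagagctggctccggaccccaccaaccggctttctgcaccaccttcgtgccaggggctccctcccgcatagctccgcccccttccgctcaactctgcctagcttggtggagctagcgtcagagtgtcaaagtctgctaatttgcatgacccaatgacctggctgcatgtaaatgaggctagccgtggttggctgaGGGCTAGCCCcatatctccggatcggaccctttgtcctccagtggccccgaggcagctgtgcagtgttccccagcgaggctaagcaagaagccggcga
Fas, chr1:241211905-241212204, + strand: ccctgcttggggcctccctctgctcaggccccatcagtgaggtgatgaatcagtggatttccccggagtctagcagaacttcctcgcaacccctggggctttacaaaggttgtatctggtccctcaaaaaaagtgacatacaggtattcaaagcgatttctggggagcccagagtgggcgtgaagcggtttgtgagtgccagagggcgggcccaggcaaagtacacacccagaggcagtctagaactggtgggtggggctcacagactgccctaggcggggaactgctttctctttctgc
In Cdkn1a and Ccng1 the capitals span 2 adjoining half-sites of 20 bases with 1 mismatch in all, from 201 to 182 and from 242 to 223 bases before the start. A pair of adjoining half-sites with at most 1 mismatch, a form looked for after the sequences had been seen, occurred in 24 of 33469 RefSeq promoter windows of the same length (0.0717%). A single half-site without mismatch stood in Gadd45a from 48 to 39 bases before the start, and in 7.98% of all windows. A window was available for 8 members, Btg2 included, but not for Zmat3, which was not searched. Of these 8 members, 3 held a half-site and 2 of these a pair. The windows of Mdm2, Fas, Apaf1, Btg2 and Phlda3 held no match, which says only that these letters are not in this stretch. A match is a description of the sequence, and binding was not measured. The members were listed as known p53 targets, so their matches beside those of all windows are no test. The genes with a pair, Cdkn1a and Ccng1, were the member that fell and 1 of those that rose.

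Expression of the measured members changed in both directions in the livers of high-dosed animals. The death receptor gene Fas, the caspase activator gene Apaf1, the cyclin gene Ccng1 and the RNA-binding protein gene Zmat3 rose by 1.33-fold to 1.56-fold. The cyclin-dependent kinase inhibitor gene Cdkn1a, which encodes p21, fell to 0.355 times its control level, a larger change on the log2 scale than that of any other measured member. Mdm2, Gadd45a and Phlda3 did not pass the test. In all, 4 members rose, 1 fell and 3 did not pass at a limma adjusted p below 0.05 over all genes tested. Over all 10714 genes the shares were 10.6% called in either direction, 7.91% higher and 2.74% lower (847 and 294 genes, against 589 and 333 after quantile normalization). The groups did not overlap for the same 5 members, against 12.1% of all genes (8.69% with the high-dosed animals above and 3.37% with them below). A log2 fold change above 0 was seen in 6 of 8 members, beside 53.9% of all genes. Of the members' 12 tested probe sets, 6 passed at an adjusted p below 0.05 over all probe sets, beside 6.92% of all probe sets. The median log2 fold change of the 8 measured members was 0.31, beside 0.017 for all genes tested. The members were chosen with earlier results of these data known, so these shares and medians describe the list and do not test it. Values are the deposited probe set intensities, folds and log2 fold changes are of high-dosed over control animals on the log2(intensity + 55.26) scale, where the added value is the 20th percentile of all intensities, and this scale understates changes of dim genes. In a whole-liver sample a change in the share of a cell type and a change in RNA per cell cannot be told apart.

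**Figure D1:**
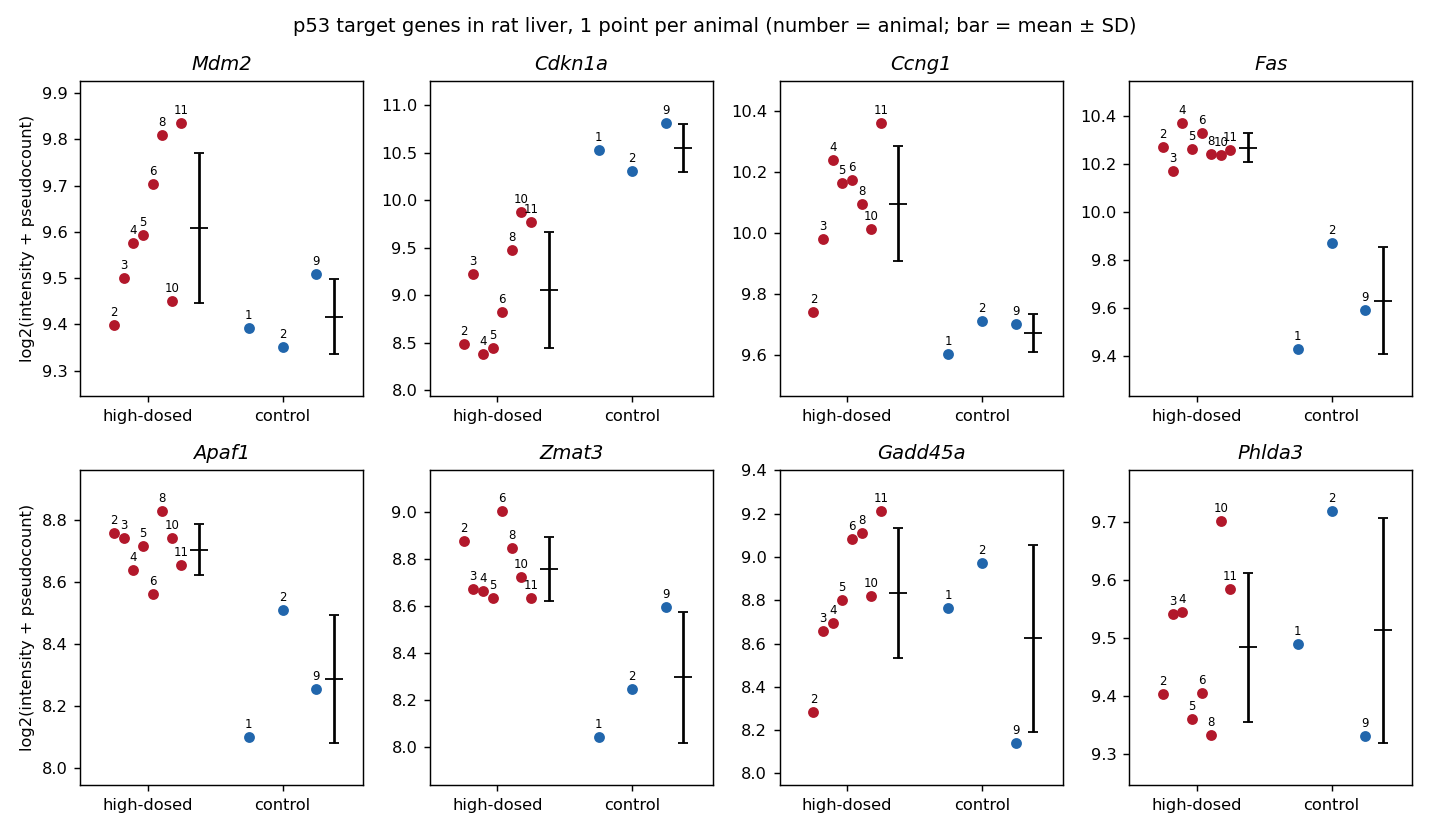
Log2(intensity + pseudocount) of the 8 measured p53 target genes, 1 point per animal with its number, 8 high-dosed animals on the left of each panel and 3 controls on the right, and the mean ± SD as a bar; the vertical scales differ between panels. The groups do not overlap for Cdkn1a, which is lower in the high-dosed animals, and for Ccng1, Fas, Apaf1 and Zmat3, which are higher in them.

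Among the genes of feedback on p53, Mdm2 was measured by 3 probe sets. Its brightest had intensities from 619 to 859 with a median of 713 in high-dosed animals, against 616, 597 and 673 in controls 1, 2 and 9. In all, 5 of 8 high-dosed animals lay above all controls, and animals 11 and 8 were highest. The log2 fold change was 0.19 ± 0.098 (SE, n = 8 high-dosed and 3 control animals, 95% interval -0.019 to 0.40, limma adjusted p = 0.243), so that a rise of up to 1.32-fold lay within the interval. The second probe set moved by the same amount (0.19 ± 0.078, limma adjusted p = 0.162 over all probe sets), with 7 of 8 high-dosed animals above all controls. The dimmest showed 0.033 ± 0.077. None of the 3 passed the test.

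Ccng1 encodes cyclin G1, which brings a phosphatase to Mdm2 and so acts back on p53. Its intensity ran from 799 to 1259 with a median of 1065 in high-dosed animals, against 722, 783 and 778 in controls. Every high-dosed animal lay above every control, by the least in animal 2. Ccng1 rose 1.34-fold, a log2 fold change of 0.42 with an SE of 0.11 (n = 8 and 3, limma adjusted p = 0.0264), and the exact two-sided permutation p was 0.00606, the smallest that 165 arrangements of these animals can give. The 3 controls differed among themselves by 1.09-fold, the high-dosed animals by 1.58-fold. The call was lost when any 1 control was left out, with values of 0.39 without control 1 and 0.44 without control 2 or control 9 (limma adjusted p = 0.135, 0.062 and 0.0613).

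Of the genes of growth arrest, Cdkn1a carried the largest change. The protein p21 binds and inhibits cyclin-dependent kinases and holds cells before DNA replication. The brightest probe set had intensities of 302, 541, 276, 292 and 398 in high-dosed animals 2, 3, 4, 5 and 6 and of 658, 881 and 818 in high-dosed animals 8, 10 and 11, against 1418, 1212 and 1748 in controls 1, 2 and 9. All 8 high-dosed animals were below all 3 controls, with animals 8, 10 and 11 nearest to them. On the log2 scale the fold change was -1.49 ± 0.32 (SE, 95% interval -2.18 to -0.81, limma adjusted p = 0.0122, exact two-sided permutation p = 0.00606), a 2.81-fold lower level. Among the 294 genes called lower it ranked 7 by fold change. The other probe set separated the groups too, with animals 8, 10 and 11 again nearest to the controls, and read 75.6 to 271.9 and a median of 89.3 in high-dosed animals, against 399, 288 and 375 in controls. It changed by -1.22 ± 0.27 (limma adjusted p = 0.0172 over all probe sets). Without control 1 the change of the brightest probe set was -1.505 and without control 9 it was -1.36, and neither was called (limma adjusted p = 0.0588 and 0.0513).

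The fall of Cdkn1a differed in size between animals. Relative to the control mean it ran from -2.18 in animal 4 to -0.68 in animal 10 on the log2 scale, and the high-dosed animals spanned 3.19-fold in intensity, against 1.44-fold among the controls. The high-dosed animals with the least fall, 8, 10 and 11, also had the lowest array medians, from 149 to 153, against 159 to 187 in the other 5 high-dosed animals and 162 to 176 in controls. Whether array brightness has a part in that spread was not tested. After quantile normalization, which gives all arrays 1 distribution, the change of Cdkn1a over all animals was -1.54 (limma adjusted p = 0.0111). That value is a difference between the groups and does not bear on the spread among high-dosed animals.

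Gadd45a, whose protein takes part in growth arrest and DNA repair, did not pass the test. It had intensities from 256 to 537 with a median of 394 in high-dosed animals, against 379, 446 and 227 in controls. The groups overlapped, and control 9 was the lowest animal of all. The log2 fold change was 0.21 ± 0.20 (SE, 95% interval -0.22 to 0.63, limma adjusted p = 0.554), and without control 9 its sign turned to -0.034.

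**Figure D2:**
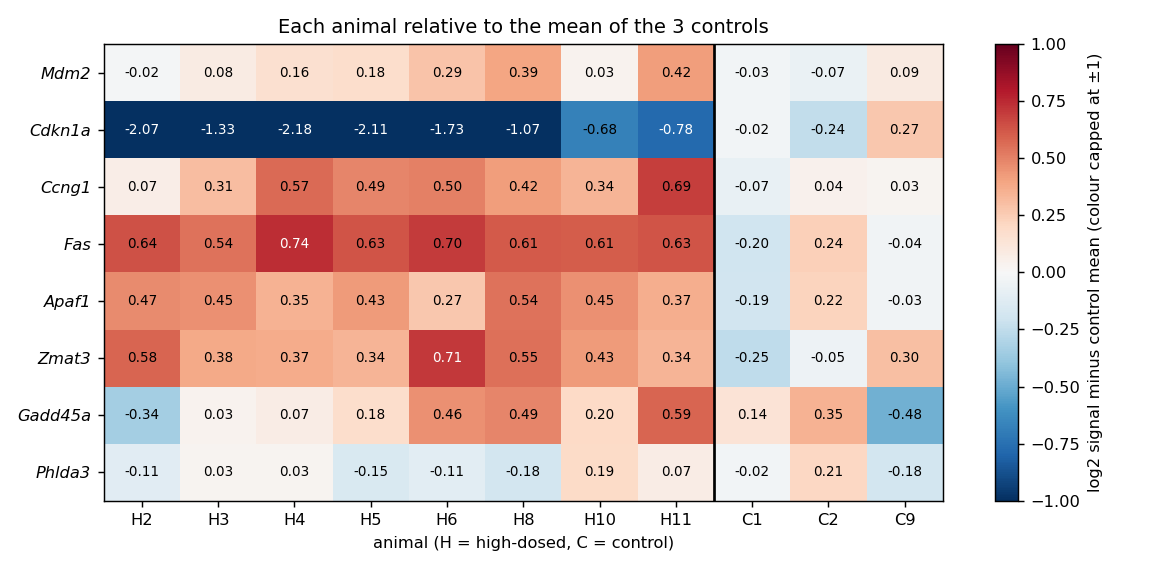
Log2 signal of each measured p53 target gene (rows) in each animal (columns, high-dosed left, control right) minus the mean of the 3 controls, with the colour capped at 1 in either direction. Cdkn1a runs from -2.18 to -0.68 in the high-dosed animals, while Fas stays between 0.54 and 0.74 in them.

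Of the genes of cell death, Fas had the larger rise and the smaller spread among high-dosed animals. Fas is the cell surface receptor through which Fas ligand starts the extrinsic death pathway, and hepatocytes are known to be sensitive to it. Its brightest probe set read 1097 to 1270 with a median of 1172 in high-dosed animals, against 634, 881 and 717 in controls. All 8 high-dosed animals lay above all controls and within 1.16-fold of each other, while the controls spanned 1.39-fold. The rise of Fas was 1.56-fold, or 0.64 ± 0.082 in log2 units (SE, 95% interval 0.46 to 0.81, limma adjusted p = 0.00105, exact two-sided permutation p = 0.00606) and ranked 82 by fold change among 847 genes called higher. The call was kept with each of the 11 animals left out in turn, at 0.54 to 0.76 (highest limma adjusted p = 0.00781).

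The 2 dimmer probe sets of Fas did not pass. One read 73.7 to 150.0 in high-dosed animals, against 139, 141 and 120 in controls, and had a log2 fold change of -0.18 ± 0.12, opposite to that of the brightest (limma adjusted p = 0.424 over all probe sets). The other lay under the signal filter and had 0.27 ± 0.12 when fitted without it (limma adjusted p = 0.266). The mean log2 signal of the first dim probe set in high-dosed animals, 7.38, was below the filter value of 7.40. The brightest probe set and the one under the filter carry the suffix that Affymetrix gives to probe sets shared by several transcripts. The transcripts behind their signal are therefore less certain. The probe set with -0.18 carries no such suffix, and 5 of 8 high-dosed animals lay below all controls for it.

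Apaf1 encodes the scaffold of the apoptosome, on which cytochrome c released from mitochondria activates caspase-9. Its intensity was 322 to 399 with a median of 369 in high-dosed animals, against 219, 309 and 250 in controls, without overlap. The rise of Apaf1 was 1.33-fold, or 0.42 ± 0.087 in log2 units (SE, limma adjusted p = 0.0116, exact two-sided permutation p = 0.00606). Its second probe set, dim and under the filter, had -0.13 ± 0.11 and was not called (limma adjusted p = 0.569). Without control 1, the lowest animal for this gene, the brightest probe set had 0.32 and was not called (limma adjusted p = 0.0882).

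Zmat3, a zinc finger protein that binds RNA and acts in growth arrest, read 342 to 458 with a median of 361 in high-dosed animals, against 209, 249 and 333 in controls. The groups did not overlap, but control 9 came close to the lowest high-dosed animals. Zmat3 rose 1.38-fold (0.46 ± 0.11, limma adjusted p = 0.0244, exact two-sided permutation p = 0.00606). Values of 0.33 without control 1 and 0.44 without control 2 were not called (limma adjusted p = 0.167 and 0.0824).

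Phlda3, which competes with the kinase Akt for membrane lipids, did not pass. It read 589 to 777 with a median of 656 in high-dosed animals, against 663, 787 and 589 in controls. The high-dosed range lay inside that of the controls. Its log2 fold change was -0.029 ± 0.097 (95% interval -0.24 to 0.18, limma adjusted p = 0.877), and its sign turned after median centring (0.0092) and without control 2 (0.074).

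**Figure D3:**
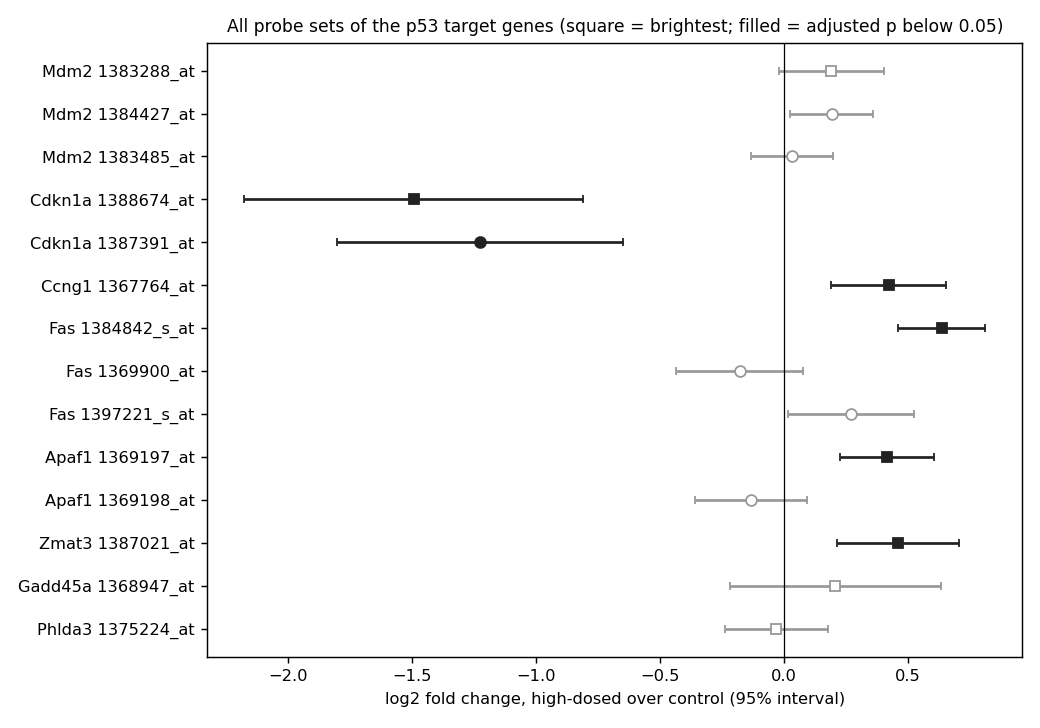
Log2 fold change of high-dosed over control animals for all 14 probe sets of the 8 measured p53 target genes, with 95% intervals; squares are the brightest probe set of a gene and filled symbols passed an adjusted p below 0.05. Both Cdkn1a probe sets lie below 0, while 1 dimmer probe set of Fas (-0.18) and that of Apaf1 (-0.13) lie opposite to the brightest, and the other dimmer one of Fas (0.27) lies on its side of 0.

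The members did not order the high-dosed animals in 1 way. Animal 11 was highest and animal 2 lowest for Mdm2, Ccng1 and Gadd45a alike. Cdkn1a was highest in animal 10 and lowest in animal 4, Fas highest in 4 and lowest in 3, Apaf1 highest in 8 and lowest in 6, Zmat3 highest in 6 and lowest in 5, and Phlda3 highest in 10 and lowest in 8. Between the lowest and highest high-dosed animal the log2 signal spanned 1.497 for Cdkn1a, 0.93 for Gadd45a and 0.62 for Ccng1. It spanned 0.20 for Fas, 0.27 for Apaf1 and 0.37 for Zmat3, which was less than the 0.44, 0.41 and 0.55 among the 3 controls.

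The number of calls moved with the controls, for the members as for all genes. Leaving out any 1 high-dosed animal, the week 10 animal included, kept 5 members called. Without control 1 there was 1 (Fas), in a fit that called 246 genes higher and 79 lower in all. Without control 2 there were 3, with 614 genes higher and 145 lower, and without control 9 there were 3, with 548 higher and 260 lower. Control 1 was the lowest animal for Fas, Apaf1, Zmat3 and Ccng1. The animals were also split by number, which the labels do not call a batch; the choice came after the data were seen and parts the animals with the least fall of Cdkn1a from the rest, so its values only describe. For the 5 high-dosed and 2 control animals numbered up to 6 the log2 fold changes were -1.75 for Cdkn1a, 0.63 for Fas, 0.62 for Zmat3, 0.40 for Ccng1, 0.38 for Apaf1 and -0.16 for Gadd45a. For the 3 high-dosed animals numbered from 8 on, set against control 9 alone, they were -1.11 for Cdkn1a, 0.65 for Fas, 0.14 for Zmat3, 0.45 for Ccng1, 0.49 for Apaf1 and 0.91 for Gadd45a. That second fit called 2 genes higher and 1 lower over all genes tested, and 0 members.

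**Figure D4:**
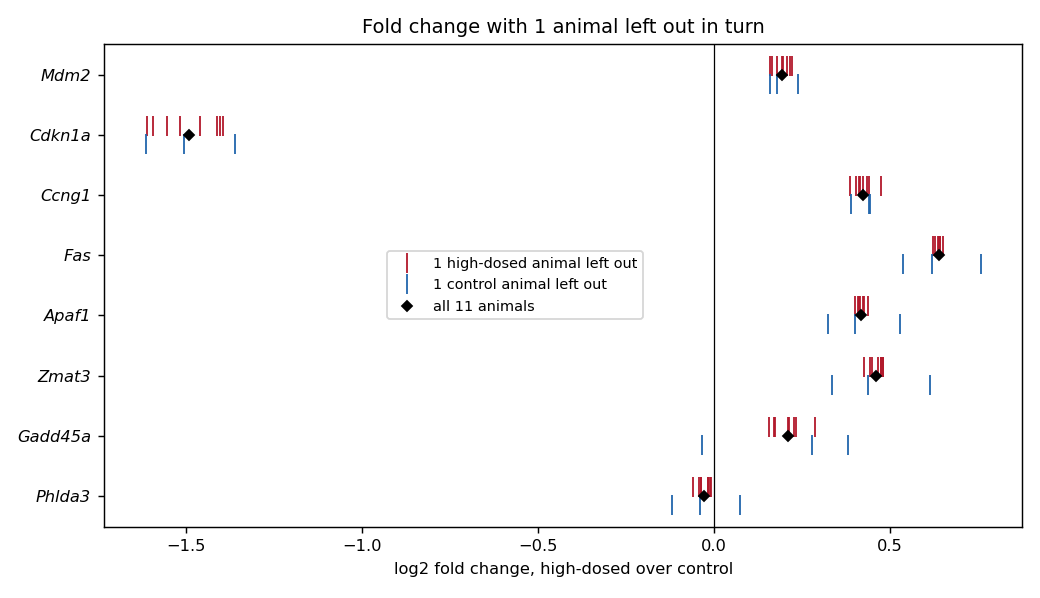
Log2 fold change of high-dosed over control animals for each measured p53 target gene with all 11 animals (diamonds), with 1 high-dosed animal left out (upper ticks) and with 1 control left out (lower ticks). Gadd45a and Phlda3 cross 0 when 1 control is left out, and the other 6 genes stay on their side of 0.

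Genes around the members in the pathway were examined in 7 lists drawn up by role. In the list of p53 regulators, 0 of 11 tested genes were called by limma, and 2 had an unadjusted p below 0.05, both higher. The share of all genes below that unadjusted limit was not counted, and it is larger than the 10.6% called. Counts at that limit, here and below, therefore only describe the lists. Mdm4, the Mdm2 relative that masks p53's activation domain, read 280 to 417 with a median of 326 in high-dosed animals, against 454, 310 and 338 in controls (log2 fold change -0.13 ± 0.12, limma adjusted p = 0.528), and the groups overlapped. Its sign turned without control 1 (0.012). The median log2 fold change of the list was 0.082.

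Of 29 tested genes in 3 lists of other p53 targets, 2 rose, 0 fell and 27 did not pass, a share of 6.90% called beside 10.6% of all genes. Among 13 targets of growth arrest and stress responses 0 were called by limma, while 1 gene in each direction had an unadjusted p below 0.05, and the list's median was -0.036. Gdf15, a secreted stress cytokine, had 270 to 409 with a median of 324 in high-dosed animals, against 438, 483 and 312 in controls (-0.25 ± 0.12, limma adjusted p = 0.212). It was called as lower without control 9 (-0.41, limma adjusted p = 0.0493). Of 9 targets in cell death 1 rose: Casp6, a caspase that cleaves nuclear lamins. It read 2072 to 2754 with a median of 2530 in high-dosed animals, against 1634, 1700 and 1600 in controls (0.58 ± 0.080, limma adjusted p = 0.00142), without overlap. The median of that list was 0.11, and Bax was not analysed here. Of 7 targets in DNA repair and metabolism 1 rose, Pml, the organiser of nuclear bodies (0.31 ± 0.086, limma adjusted p = 0.0375). Its call was lost without any 1 control (0.29 to 0.35, limma adjusted p from 0.0632 to 0.156) and without high-dosed animal 3, 4, 5 or 8, and also with no signal filter (limma adjusted p = 0.0519) or after quantile normalization (0.29, limma adjusted p = 0.0561). Ddb2, which recognises ultraviolet damage in DNA, read 307 to 404 with a median of 347 in high-dosed animals, against 367, 349 and 314 in controls (0.035 ± 0.085, limma adjusted p = 0.831), and its sign turned without control 9 (-0.019).

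Among relatives and binding partners of Cdkn1a, 3 of 11 tested genes rose and 0 fell, a share of 27.3% called beside 10.6% of all genes. The list's median log2 fold change was 0.20. Cdkn1c, the p57 member of the same inhibitor family, read 296 to 473 with a median of 405 in high-dosed animals, against 253, 226 and 260 in controls, without overlap. It rose 1.46-fold (0.55 ± 0.10, limma adjusted p = 0.00715), opposite in direction to Cdkn1a. The G1 cyclin gene Ccnd3 (0.29 ± 0.066) and its kinase partner Cdk4 (0.22 ± 0.057) rose as well (limma adjusted p = 0.018 and 0.0308). Both calls were lost without control 1 (0.27 and 0.19, limma adjusted p = 0.102 and 0.162) or control 9 (0.27 and 0.19, limma adjusted p = 0.0586 and 0.103), and that of Cdk4 without high-dosed animal 8 or 11. Of the 17 listed genes 6 lay under the signal filter. At an unadjusted p below 0.05, 4 were higher and 0 lower.

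Family relatives of the other members gave 3 rises and 0 falls among 9 tested, a share of 33.3% called beside 10.6% of all genes. Their median was 0.14, with 3 higher and 0 lower at an unadjusted p below 0.05 in limma. Phlda2, a relative of Phlda3, rose 1.57-fold, with 175 to 284 in high-dosed animals, against 127, 125 and 148 in controls (0.65 ± 0.11, limma adjusted p = 0.00452). The smaller rises of Zmat1 (0.34 ± 0.099) and the cyclin gene Ccni (0.14 ± 0.041) stood at limma adjusted p of 0.0439 and 0.0446. That of Zmat1 was lost without control 1 or 2 or without 1 of 6 of the high-dosed animals (0.27 to 0.35 without those controls), and that of Ccni when any animal other than high-dosed animal 2 was left out (0.11 to 0.17 without 1 control). With no signal filter or after quantile normalization neither was called, at limma adjusted p of 0.057 and 0.0643 for Zmat1 and of 0.0542 and 0.115 for Ccni. Partners of Fas and Apaf1 had a median of 0.19, with 4 higher and 0 lower at an unadjusted p below 0.05 in limma. Of 9 tested, 1 gene rose and 0 fell, a share of 11.1% called. That gene was Diablo, a mitochondrial protein that relieves the inhibition of caspases, with 1104 to 1372 in high-dosed animals, against 786, 864 and 968 in controls (0.45 ± 0.076, limma adjusted p = 0.00408). Over all 7 lists, 9 of 69 tested genes rose and 0 fell, a share of 13.0% called, near the 10.6% of all genes.

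**Figure D5:**
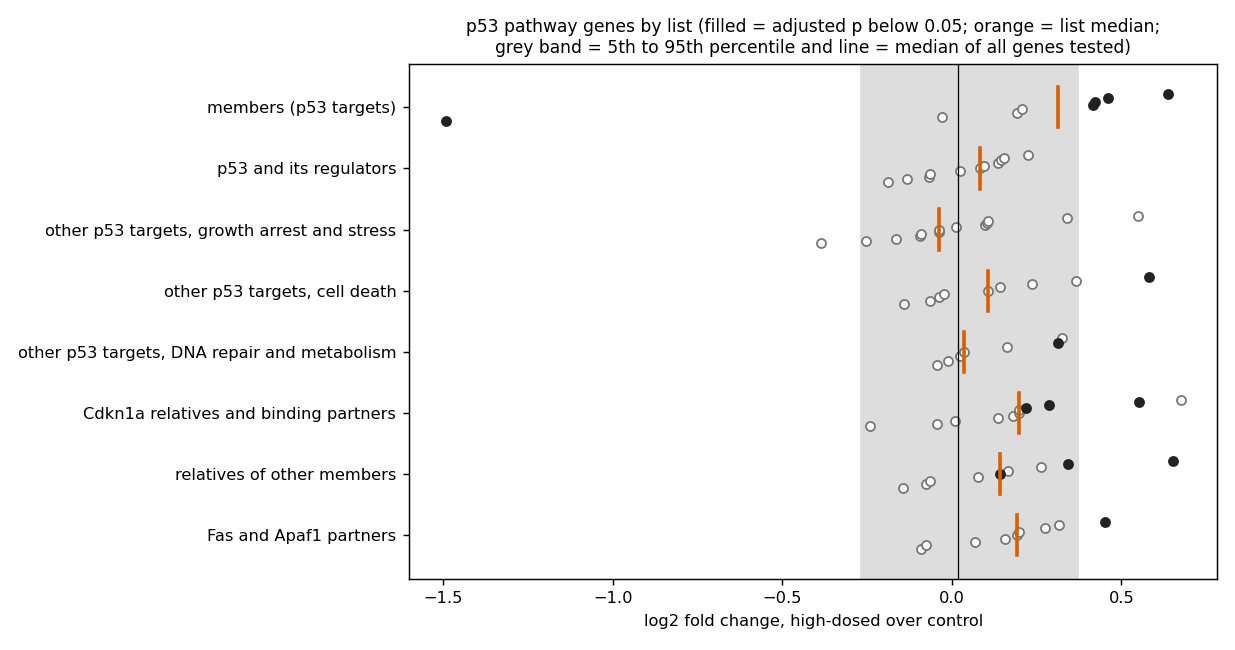
Log2 fold change of high-dosed over control animals for the measured members and for the tested genes of 7 lists around them; filled points passed an adjusted p below 0.05, orange bars are list medians, and the grey band holds the 5th to 95th percentile of all genes tested (-0.27 to 0.37). The members' median is 0.31, while those of the other lists lie between -0.036 and 0.20. Members and lists were chosen with earlier results of these data known, so the difference between the medians only describes them.

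The profile of Cdkn1a over the 11 arrays was set against all genes tested by the root mean square difference of log2 signals, each gene centred on its own mean. The 5 nearest genes were Lgalsl (0.36), the clock activator Bmal1 (0.36), the beta-tubulin gene Tubb2a (0.37), the activin subunit gene Inhba (0.41) and Tmem252 (0.42), all differences in log2 units over 11 arrays. Their log2 fold changes were -1.02, -1.70, -1.69, -1.06 and -1.07, and Inhba was not called (limma adjusted p = 0.0531). After the sign was turned, the nearest were the period gene Per3 (0.37), H2-Q7-ps1 (0.41), the transcription factor gene Tef (0.43), the steroid dehydrogenase gene Hsd17b2 (0.45) and Bcl2l11, which encodes the death activator Bim (0.46). Their log2 fold changes were 1.37, 0.77, 0.99, 2.06 and 1.01, and H2-Q7-ps1 was not called (limma adjusted p = 0.107). Without control 1 the calls of Lgalsl (-1.07), Bmal1 (-1.67), Tmem252 (-1.005), Per3 (1.43) and Tef (0.93) were lost, and without control 2 those of Lgalsl (-0.94), Per3 (1.33) and Tef (0.996). Tef also lost its call without control 9 (1.04) or without high-dosed animal 4, 5, 6, 8 or 11 (0.92 to 1.02). Inhba was called without high-dosed animal 2 (-0.93) or 10 (-1.19), and H2-Q7-ps1 without high-dosed animal 11 (0.90). With the split by animal number as a block both were called, at -1.085 and 0.79 (limma adjusted p = 0.0248 and 0.0255). Both genes were picked for their likeness to Cdkn1a, and that split parts the high-dosed animals by the fall of Cdkn1a. A lower adjusted p under the block was thus favoured by the choice, and these 2 calls give no support. Inhba was called, and Tef was not, after quantile normalization (-1.12 and 0.96) and with the larger pseudocount (-0.84 and 0.82). Since all 11 arrays enter this measure, the difference between the groups weighs in it.

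Markers of other cells in the liver moved with the groups for some types, and their part in the members' changes was not tested. Over all genes tested, 10.6% were called. The share of all genes with an unadjusted p below 0.05 is larger and was not counted, so counts at that limit only describe the lists. Of 7 tested markers of sinusoidal endothelium 3 rose (Pecam1, Stab2 and Emcn). At an unadjusted p below 0.05 in limma 5 were higher and 0 lower, while Lyve1 had -0.12 ± 0.064 and was not called. The summed intensity of that list was 11445 to 12582 in high-dosed animals, against 10026 to 11159 in controls. Of 2 tested bile duct markers 1 rose (Epcam), with a sum over 5 listed genes of 1064 to 1746 in high-dosed animals, against 717 to 871 in controls. Neither the endothelial nor the bile duct sum overlapped between the groups. The bile duct sum mainly follows Epcam, which read 665 to 1265 in high-dosed animals, against 413, 410 and 512 in controls. Spp1 overlapped (171 to 270, against 201, 141 and 194), and Krt19, Krt7 and Cftr lay under the signal filter. For 9 macrophage markers, of which Mrc1 rose, the sums were 27163 to 36485 in high-dosed animals, against 20849 to 28667 in controls, and overlapped. At an unadjusted p below 0.05 in limma 5 macrophage markers were higher and 0 lower, while Cd163 had -0.22 ± 0.18 and was not called. Proliferation markers, of which Tyms and Bub1 rose among 6 tested, summed to 1495 to 1784 in high-dosed animals, against 1258 to 1517 in controls, with overlap. Of these markers, Cdc20 had -0.17 ± 0.098 and was not called. Hepatocyte markers, which define the tissue, were bright in all animals, with sums of 166101 to 173606 in high-dosed animals, against 166454 to 169500 in controls. The brightest genes weigh most in that sum. Alb alone reached 34328, the highest intensity of all values, so the sum does not show a steady share of hepatocytes. Among the 9 hepatocyte markers tested, Apoa1 rose and Asgr1 fell. Of the 9 marker genes named as changed, Emcn and Epcam alone kept their call with each animal left out in turn. Without control 1 the other 7 lost it, with log2 fold changes of 0.51 for Pecam1, 0.31 for Stab2, 0.22 for Mrc1, 0.39 for Tyms, 0.21 for Bub1, 0.35 for Apoa1 and -0.14 for Asgr1. Tyms and Bub1 lost it without control 2 as well (0.42 and 0.26), and Apoa1, Mrc1, Stab2 and Tyms without control 9 (0.24, 0.30, 0.39 and 0.34). Stab2 also lost it without high-dosed animal 5 (0.38), and Mrc1 and Bub1 without 7 of the 8 high-dosed animals each. The lists of stellate cells, T and NK cells, B cells, neutrophils and erythroid cells had 0 genes called by limma (1 stellate marker was higher at an unadjusted p below 0.05), and the ranges of their sums overlapped between the groups. In 0 of these lists was a marker at an intensity of 0; the lowest intensity in the table is 1.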

How the data were processed

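Liver RNA of 11 rats was measured on 11 arrays. The deposited values are linear intensity readings, 1 for every probe set and array. The submitters' processing notes name MAS5 without a version or role, and the scaling between arrays was not given in the sources used here. The table held 31099 probe sets, 57 of them Affymetrix controls, with array medians from 149 to 187; for arrays no read depth exists, and 3 controls limit the precision. Detection calls were not used here.

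Values were transformed as log2(intensity + 55.26), the 20th percentile of all values. After removal of control probe sets and of any whose mean log2 signal was under the 40th percentile (7.40), there remained 18625 probe sets and 10714 genes, a gene being its brightest probe set with 1 symbol. Of the members' 14 probe sets, 12 passed, and so did the brightest of each of the 8 genes. High-dosed and control animals were compared with limma 3.58.1 in R 4.3.3 (two-sided, with variances moderated along a trend in intensity), with Benjamini-Hochberg adjustment over all genes, or over all probe sets for a gene's further probe sets; calls are at an adjusted p below 0.05. The fit was tested on simulated data. Exact permutation tests used all 165 arrangements of the animals. The 8 measured symbols matched RefSeq (GRCr8) by Entrez identifier. Promoter windows and their sequences are from the same assembly.

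The members and lists were chosen with earlier results of these data known. Named were all members, Mdm4, Bax, Ddb2 and Gdf15, at most 4 called genes per pathway list by adjusted p, and the 5 genes nearest to Cdkn1a in each direction; 1 further gene of this rule is not reported here, and marker genes that passed are named beyond this rule, after their values were seen. The alternatives were the pseudocount, the filter, the scaling, the variance trend, each animal left out and, added after the data were seen, a split by animal number.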

Additional observations from a re-analysis of the deposited data

Results flagged for a closer look

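Of 45 sets of 8 high-dosed values checked for a single animal apart from the rest, 2 stood out, where chance gives about 1 in 20. High-dosed animal 10 was lowest for Hsd17b2, with a log2 signal of 12.37, while the next animal had 13.33 and the highest 13.97. The gap was 0.599 of the group's range. High-dosed animal 2 was lowest for the proliferation marker Tyms, with 7.20, while the next animal had 7.47 and the highest 7.70, a gap of 0.543 of the range. None of the 14 probe sets of the members had such an animal.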

How the results depend on the processing

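No paired analysis was possible because the labels pair no high-dosed animal with a control. Animal number 2 occurs in both groups, for 2 different rats. The 5 calls among the members were kept with no pseudocount, a pseudocount 4 times larger, no filter, a filter at the 60th percentile, quantile normalization, median centring and no variance trend. The exact permutation test had p = 0.00606 for each of them.

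With 1 animal left out, the number of members called ran from 1 to 5, of pathway genes from 5 to 12, of genes higher from 246 to 1081, of genes lower from 79 to 325 and of probe sets from 324 to 1688. The log2 fold changes ran from -1.61 to -1.36 for Cdkn1a, 0.39 to 0.47 for Ccng1, 0.32 to 0.53 for Apaf1, 0.33 to 0.61 for Zmat3, -0.034 to 0.38 for Gadd45a, -0.12 to 0.074 for Phlda3, -0.23 to 0.012 for Mdm4 and -0.019 to 0.078 for Ddb2. Median centring gave 703 genes higher and 147 lower, and 0.0092 for Phlda3.

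With a block for animal numbers up to 6 against those from 8 on, 1955 probe sets and 5 members were called. Within numbers 6 and below, 408 genes were higher, 761 probe sets and 3 members were called, and the values were 0.40 for Ccng1 and 0.38 for Apaf1, both not called, -0.16 for Gadd45a and -0.096 for Ddb2. Within numbers 8 and above, with 1 control, 2 genes were higher, 1 was lower, and 17 probe sets, 0 members and 0 pathway genes were called; the values were -1.11 for Cdkn1a, 0.45 for Ccng1, 0.65 for Fas, 0.49 for Apaf1, 0.14 for Zmat3, 0.91 for Gadd45a and 0.21 for Phlda3. Fewer animals enter these fits. Among further probe sets, Fas had -0.18 and 0.27 and Apaf1 -0.13, none of them called. For 31 other genes named (of the pathway lists, near Cdkn1a, and markers), 500 of 645 values under the alternatives kept direction and call, 131 lost the call, 11 gained it and 3 changed sign. The causes were not tested.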
